A study of Mus musculus with 15 samples.

Results

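Trem2-/- BV2 cells kept in medium without added cholesterol were compared with WT BV2 cells kept in the same way. The comparison takes the 7 non-foamy libraries of a series of 15, namely 4 of WT cells (labelled WT_NF) and 3 of Trem2-/- cells (labelled KO_NF). The other 8 libraries, 4 of each genotype, came from cells that had received 20 µg/ml soluble cholesterol overnight to make them foamy (WT_F and KO_F), and they entered the fit to estimate the spread and to test whether the genotype difference changes with cholesterol. RNA-seq reads were counted per gene, and 14237 of the 54390 listed genes had enough counts to be tested.

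BV2 is a mouse microglial line immortalised with an oncogenic retrovirus, used here as a macrophage model. According to the methods, a Cas9-expressing BV2 clone received a guide RNA against Trem2, Trem2-/- clones were then obtained by limiting dilution, and loss of the protein was checked by flow cytometry. How many clones went into the Trem2-/- libraries, and whether the WT cells were the parental Cas9 clone, is not stated in the sources used here. Properties of a clone and loss of Trem2 therefore cannot be told apart in this comparison. Nothing in the labels says that the libraries of a group came from separate cultures, so the p-values measure the spread between these libraries, which may be technical.

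Trem2 is a lipid- and lipoprotein-binding receptor of macrophages and microglia. It has no signalling tail of its own and couples through the adaptor Tyrobp (DAP12) to the kinase Syk, and through the related adaptor Hcst to PI3 kinase. In brain and plaque it is known for its part in lipid uptake and handling, in survival and proliferation, and in the switch to a lipid-associated state marked by genes such as Apoe, Lpl and Gpnmb.

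The WT libraries held 36021489, 28973007, 23538963 and 41683825 counted reads and the Trem2-/- libraries 37312009, 29416682 and 31337640. In every non-foamy library between 82.8 and 83.5% of the counts from 1 to 10 were even numbers, a pattern that counting each read of a pair separately would give. How pairs were counted is not stated in the sources used here, and the number of independent fragments may be smaller than the counts. WT_NF sample 3 stood apart. It had the fewest reads, and ribosomal protein genes took 15.5% of its counts against 12.6 to 12.9% in the other WT libraries and 15.4 to 16.0% in the Trem2-/- libraries. Mitochondrial genes took 7.97% of its counts against 6.55 to 6.73% in the other WT libraries and 6.603 to 7.41% in the Trem2-/- libraries. The part of these shares in the results was not tested. Along the axis that joins the mean WT (0) to the mean Trem2-/- profile (1) over 5906 called genes, each library being left out of its own mean, WT_NF sample 3 lay at 0.088, the other WT libraries from -0.034 to 0.017 and the Trem2-/- libraries from 0.942 to 0.998. That axis rests on called genes and describes the libraries without testing anything. Without WT_NF sample 3, 6380 genes were called, 5778 of them also called with it.

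All 10 macrophage and microglial markers chosen for BV2 cells (Ptprc, Aif1, Cd68, Itgam, Csf1r, Spi1, Adgre1, Fcgr1, Tyrobp and Cd14) passed the filter on low counts, and their summed level was 3373 to 4098 CPM (CPM, counts scaled to a common library size with TMM factors) in WT and 4670 to 4935 CPM in Trem2-/- libraries. The 6 fibroblast and 5 epithelial markers were at 0 counts in the 7 libraries, and the neuronal markers summed to at most 0.193 CPM. Trem2 itself (chr17:48346401-48354147, GRCm38) was at 329, 345, 415 and 327 CPM in the WT libraries and 232, 214 and 220.5 CPM in the Trem2-/- libraries, so the groups did not overlap. The transcript fell by 0.67 on the log2 scale (s.e. 0.08, adjusted p = 2.8e-07), which leaves it abundant in the Trem2-/- libraries. A Cas9 cut can leave a transcript that encodes no full protein, so gene-level counts cannot show the state of the protein. The difference was -0.73 in the cholesterol-loaded libraries, and the change between the conditions missed the threshold (0.06, adjusted p = 0.82).

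Of the 14237 tested genes, 6207 (43.6%) differed between Trem2-/- and WT non-foamy cells at an adjusted p under 0.05, 2985 of them higher (21.0%) and 3222 lower (22.6%) in Trem2-/- cells. The called genes had a median absolute log2 fold change of 0.50, and 880 genes (6.18%) were called and differed by at least 1, of which 97 were higher and 88 lower by more than 2. The libraries of the groups did not overlap for 6566 genes (46.1%). The split of calls depended on the scaling, since library totals alone moved the median log2 fold change of all tested genes from 0.02 to -0.13 and gave 1820 genes higher and 4379 lower, so 29.4% of calls were higher in place of 48.1%. With so many genes called, each gene group below is read against these shares.

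**Figure D1:**
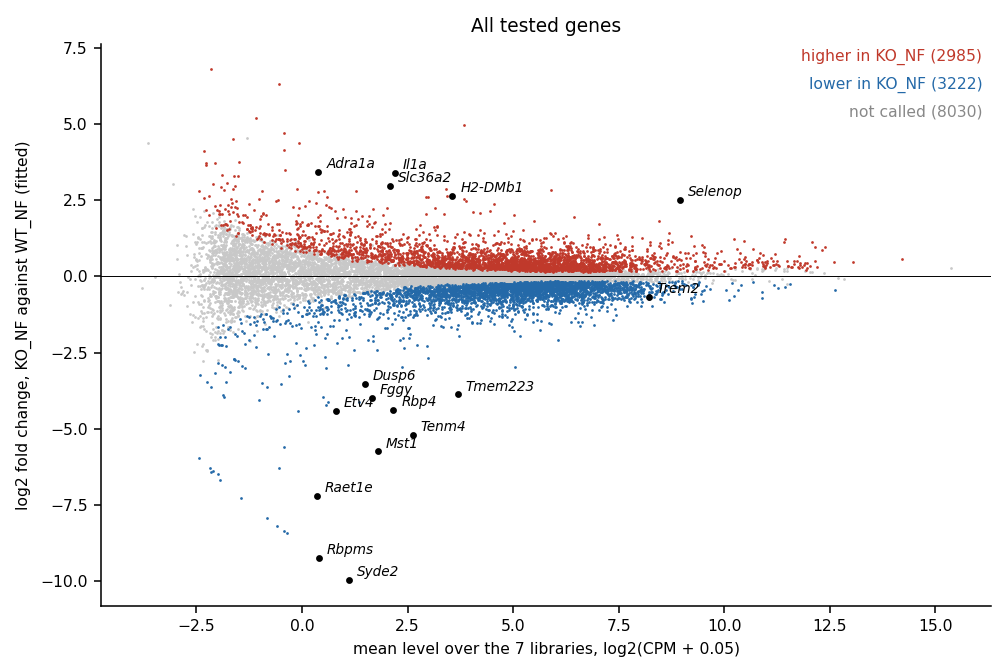
Fitted log2 fold change of Trem2-/- against WT non-foamy cells (vertical axis) against mean level in log2(CPM + 0.05) over the 7 libraries (horizontal axis) for each tested gene, with called genes in red (2985 higher) and blue (3222 lower). The named genes at the bottom had few or no counts in the Trem2-/- libraries, so their fitted values are not bounds, while Trem2 at -0.67 sits among many genes of like change.

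The 15 genes with the largest decrease, taken from called genes that averaged 1 CPM or more and whose groups did not overlap, were Syde2, Rbpms, Raet1e, Mst1, Tenm4, Etv4, Rbp4, Gcnt2, Dclk2, Rhox5, Fggy, Depp1, Tmem223, Dusp6 and Ptgds. They lie on 12 chromosomes. Syde2, which encodes a GTPase-activating protein (chr3:145987870-146021720), was at 4.56, 3.61, 3.17 and 3.525 CPM in the WT libraries and had no count in the 3 Trem2-/- libraries. Taken against 3 counts over the Trem2-/- group, that is at least 115-fold lower. The RNA-binding protein gene Rbpms (chr8:33782643-33929863) was at 2.39, 3.16, 1.32 and 2.05 CPM in WT and also had no count in Trem2-/- libraries, at least 69.1-fold lower on the same floor. Intervals and floors cover counting error only, and if 2 reads were counted per fragment, a floor of 3 fragments would make these bounds 2 times smaller.

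Raet1e, a stress-induced ligand of the natural killer receptor Nkg2d, had 1 count in the Trem2-/- and 295 in the WT libraries, a 200-fold difference with a 95% counting interval of 36.0 to 7916. Its exons overlap another gene along 23% of their length, and whether counting used strand is not stated. In all, 8 genes with a WT mean of at least 1 CPM had 3 counts or fewer over the Trem2-/- libraries. Besides these 3 they were Jazf1, Egln3, Zfp808, Gm35996 and Smtn, named after their values were seen. Egln3, a prolyl hydroxylase that marks HIF proteins for degradation, had 165 counts in the WT libraries and none in the Trem2-/- libraries, at least 37.4-fold lower. The same 8 genes had 8 counts or fewer each, summed over the 4 cholesterol-loaded Trem2-/- libraries, and 110 to 476 summed over the matching WT libraries.

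Tenm4, a teneurin adhesion protein, was at 11.4, 12, 7.83 and 10.8 CPM in the WT libraries and 0.228, 0.289 and 0.331 CPM in the Trem2-/- libraries (log2 fold change -5.22, adjusted p = 1.9e-10). Rbp4, the plasma retinol carrier, was at 7.57, 6.925, 8.45 and 6.98 CPM in the WT libraries and 0.285, 0.325 and 0.4635 CPM in the Trem2-/- libraries (log2 fold change -4.38, adjusted p = 6e-11). Tmem223, a mitochondrial assembly factor, was at 21.7, 18.9, 25.7 and 18.85 CPM in the WT libraries and 1.17, 1.12 and 2.05 CPM in the Trem2-/- libraries (log2 fold change -3.88, adjusted p = 3.2e-12). For each of these genes the lowest WT library was more than 5 times above the highest Trem2-/- library.

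The 15 largest increases by the same rule included Adra1a, Il1a, Slc36a2, Vnn3, Slc7a7, Gadd45a, Agmo, Gm6325, H2-DMb1, Acp5, Apoc4, Mgst1, BC021767 and Selenop. Several encode transporters or enzymes: Slc36a2 and Slc7a7 carry amino acids, Vnn3 is a pantetheinase-family protein, Agmo cleaves ether lipids, and Mgst1 conjugates glutathione. Slc36a2 was at 0.908, 0.87, 1.01 and 1.41 CPM in the WT libraries and 7.865, 8.44 and 8.67 CPM in the Trem2-/- libraries (log2 fold change 2.96, adjusted p = 4e-11). Acp5, the tartrate-resistant acid phosphatase of osteoclasts and activated macrophages, was at 2.44, 2.48, 3.08 and 1.67 CPM in the WT libraries and 14.05, 15 and 14.5 CPM in the Trem2-/- libraries (log2 fold change 2.62, adjusted p = 3.5e-12). Selenop, a secreted selenium carrier, was at 154, 159.6, 181 and 157 CPM in the WT libraries and 929, 972 and 895 CPM in the Trem2-/- libraries (log2 fold change 2.52, s.e. 0.09, adjusted p = 9.4e-15). Gm6325 and BC021767 are annotated as pseudogenes, and reads shared with their parent genes could not be assigned with certainty.

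The adaptor and kinase that act directly downstream of Trem2 rose. Tyrobp was at 1140, 1118, 1582 and 1099 CPM in the WT libraries and 1797, 1640 and 1782 CPM in the Trem2-/- libraries (log2 fold change 0.49, s.e. 0.11, adjusted p = 0.00052), with WT_NF sample 3 between the other WT libraries and the Trem2-/- libraries, and without that library its log2 fold change was 0.64. Syk was at 79.2, 75.85, 66.3 and 78.8 CPM in the WT libraries and 106, 102.2 and 107 CPM in the Trem2-/- libraries (log2 fold change 0.48, s.e. 0.08, adjusted p = 5.7e-05). Hcst differed by 0.45 log2 units and missed the threshold (adjusted p = 0.071), as did the phosphatase Inpp5d (0.14, adjusted p = 0.26) and the phospholipase Plcg2 (-0.19, adjusted p = 0.16). Without WT_NF sample 3, Hcst and Plcg2 were called (log2 fold change 0.67 and -0.29, adjusted p = 0.0035 and 0.0093), and Hcst was also called without KO_NF sample 2. Of 22 genes of the receptor and its proximal signalling, 7 rose, 4 fell and 11 were not called, which gives 50% called against 43.6% of all tested genes. The adaptor Lcp2 (SLP-76) fell from 33.2 ± 1.58 CPM in WT (SD, n = 4) to 17.7 ± 2.39 CPM in Trem2-/- cells (SD, n = 3) (log2 fold change -0.91, adjusted p = 1.2e-07). The ubiquitin ligase Cblb, which restrains such signalling, rose from 5.34 ± 1.225 CPM in WT (SD, n = 4) to 11 ± 0.436 CPM in Trem2-/- cells (SD, n = 3) (log2 fold change 1.02, adjusted p = 2e-05), and the kinase Prkcd rose by 0.68. With library totals alone, 4 members rose and 5 fell.

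Of 20 tested markers of disease- and lipid-associated macrophages, 12 rose (60.0%, against 21.0% of all tested genes), 3 fell (15%, against 22.6%) and 5 were not called. The median log2 fold change was 0.31 against 0.02 over all tested genes. It was 0.175 against -0.13 with library totals alone, where 10 rose and 4 fell. Apoe was at 1666, 1773, 1949 and 1693 CPM in the WT libraries and 4050, 3846 and 4470 CPM in the Trem2-/- libraries (log2 fold change 1.22, adjusted p = 1.4e-11). Gpnmb, a lysosome-associated glycoprotein, was at 3766, 4102, 3490 and 3989 CPM in the WT libraries and 7550, 7163 and 7653 CPM in the Trem2-/- libraries (log2 fold change 0.96, adjusted p = 5.9e-09). Lpl, the lipoprotein lipase, went the other way and was at 2117, 2236, 2149 and 2234 CPM in the WT libraries and 1477, 1651 and 1497 CPM in the Trem2-/- libraries (log2 fold change -0.50, adjusted p = 1.4e-06). The lectin Lgals3 rose by 0.67 log2 units, the integrin Itgax by 0.85 and the metalloprotease inhibitor Timp2 by 1.34, whereas Spp1 (-0.06, adjusted p = 0.58), Fabp5 (0.18, adjusted p = 0.09) and Cst7 (0.17, adjusted p = 0.091) missed the threshold. Without WT_NF sample 3, Fabp5 and Cst7 were called (log2 fold change 0.27 and 0.23, adjusted p = 0.0027 and 0.014).

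Of 14 tested homeostatic microglial markers, 7 rose (50%, against 21.0%), 4 fell (28.6%, against 22.6%) and 3 were not called. P2ry12 and Cx3cr1, receptors for nucleotides and for fractalkine, were low in both genotypes. P2ry12 was at 1.74 ± 0.5085 CPM in WT and 0.598 ± 0.08235 CPM in Trem2-/- cells, Cx3cr1 at 1.54 ± 0.292 and 0.3005 ± 0.0887 CPM (SD, n = 4 and n = 3), and both fell (-1.51 and -2.35). Gpr84, a receptor for medium-chain fatty acids, was at 0.389, 0.515, 0.176 and 0.402 CPM in the WT libraries and had no count in the Trem2-/- libraries (adjusted p = 0.00031), and 39.5% of its exonic length overlaps other genes. With at least 10 counts asked of every library, 2 of the 4 falls remained. Tmem119 was at 0.374 and 0.386 CPM. Csf1r, the receptor for colony-stimulating factor 1 on which macrophages depend, rose by 0.61 log2 units and Gpr34 by 0.70. Of 20 tested myeloid transcription factors, 8 rose and 3 fell, 40% and 15% against 21.0% and 22.6%. Spi1 (PU.1) differed by 0.07 log2 units (adjusted p = 0.38), whereas Irf8 rose by 0.55, Maf by 0.52, Mitf by 0.65, Bhlhe41 by 0.79 and Bhlhe40 by 0.82, and Cebpd fell by 1.33.

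**Figure D2:**
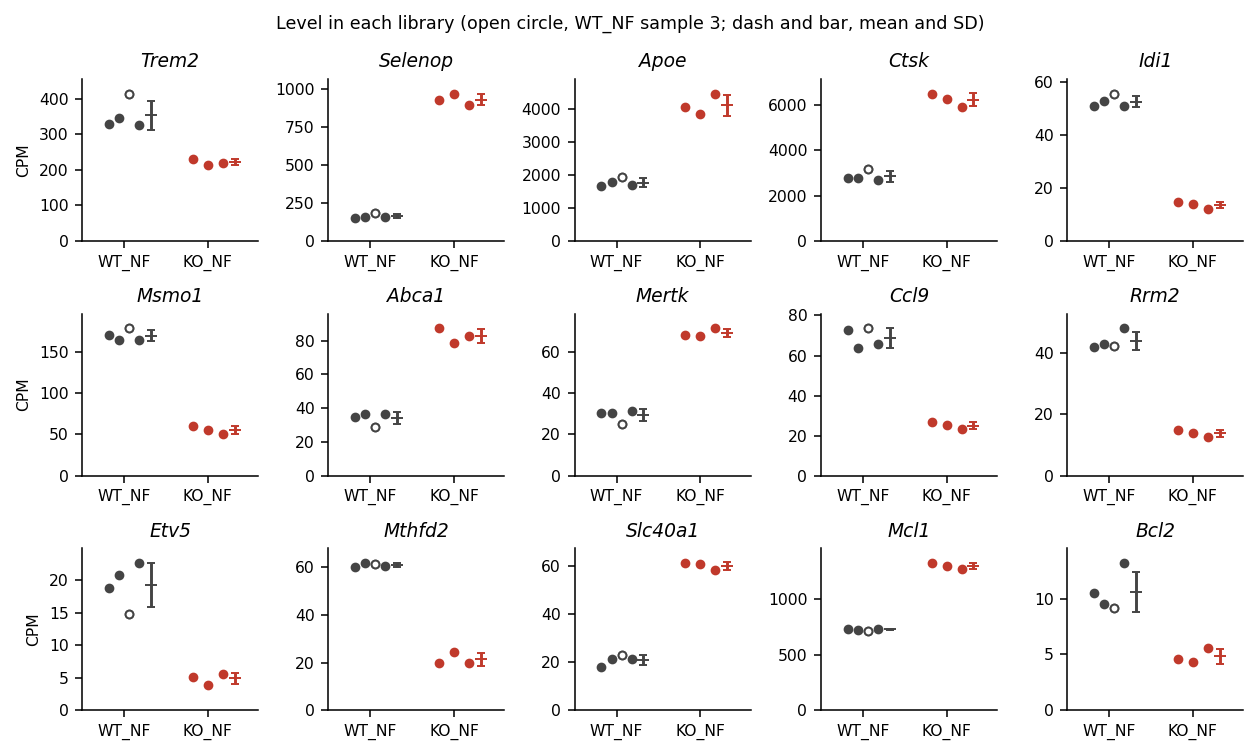
CPM of 15 genes in each of the 4 WT (WT_NF, black) and 3 Trem2-/- (KO_NF, red) non-foamy libraries, with the mean and SD beside the points and WT_NF sample 3 as an open circle. In each panel the groups do not overlap, and the vertical axes start at 0.

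Of 36 tested cathepsins, lysosomal hydrolases and their regulators, 28 rose (77.8%, against 21.0% of all tested genes), 1 fell (the dipeptidyl peptidase Ctsc) and 7 were not called, and the median log2 fold change was 0.59. Ctsk, a collagen-degrading cathepsin, was at 2756, 2760, 3179 and 2678 CPM in the WT libraries and 6496, 6245 and 5920 CPM in the Trem2-/- libraries (log2 fold change 1.13, adjusted p = 7e-11). Ctsf was at 17.1, 19.6, 18 and 18.2 CPM in the WT libraries and 45.6, 42.3 and 42.9 CPM in the Trem2-/- libraries (log2 fold change 1.26, adjusted p = 3e-10), and Psap, the precursor of the saposins that help break down sphingolipids, rose 2.21-fold. Npc2, which hands cholesterol to Npc1 inside the lysosome, rose by 0.89 log2 units, and Npc1 by 0.80. The transcription factor Tfeb, a regulator of lysosomal genes, was at 10.2, 8.76, 8.89 and 10.6 CPM in the WT libraries and 17.2, 15.2 and 18.4 CPM in the Trem2-/- libraries (log2 fold change 0.81, adjusted p = 5.7e-07). Ctsd and Ctsl rose by 0.77 log2 units and 0.69, but 34.4% and 26.85% of their exonic length overlaps other genes. Scaled by library totals alone, 25 members rose and 1 fell.

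All 18 tested enzymes of cholesterol synthesis fell, with a median log2 fold change of -0.98 against 0.02 over all tested genes. When WT_NF sample 2, WT_NF sample 3 or any 1 of the 3 Trem2-/- libraries was left out 17 fell, each time with Ebp not called. The sample number as a block also left 17. Of 19 listed enzymes 1 had no count in the 7 libraries and was not tested. Idi1, the isopentenyl diphosphate isomerase (chr13:8885501-8892451), was at 51.1, 52.7, 55.6 and 51.1 CPM in the WT libraries and 14.6, 13.9 and 12.15 CPM in the Trem2-/- libraries (log2 fold change -1.96, s.e. 0.10, adjusted p = 2.1e-12). Msmo1, the methylsterol monooxygenase, was at 171, 164, 179 and 164 CPM in the WT libraries and 60.35, 55.4 and 50.75 CPM in the Trem2-/- libraries (log2 fold change -1.61, s.e. 0.08, adjusted p = 7.7e-13). The log2 fold changes of the enzymes ran from -1.96 for Idi1 to -0.26 for the sterol isomerase Ebp, with Hsd17b7 at -1.73, Fdps at -1.60, the squalene synthase Fdft1 at -1.20 and mevalonate kinase (Mvk) at -0.65. The 5 tested genes that share control by SREBP2 but make no sterol also fell. Tmem97, a sterol-binding membrane protein, was at 149, 144, 161 and 148 CPM in the WT libraries and 78.5, 79.7 and 81.3 CPM in the Trem2-/- libraries (log2 fold change -0.91, s.e. 0.07, adjusted p = 4.3e-10). Srebf2, which encodes SREBP2, fell by 0.72 log2 units, Insig1 by 0.83 and the sterol carrier Stard4 by 0.92.

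The oxysterol receptors LXR induce genes of sterol efflux. Of 11 tested genes of the list of LXR targets and sterol efflux, 7 rose (63.6%, against 21.0% of all tested genes) and 1 fell (Lpcat3, not called without KO_NF sample 1). Abca1, which exports cholesterol to apolipoprotein A-I, was at 34.75, 36.75, 28.9 and 36.5 CPM in the WT libraries and 87.2, 78.45 and 82.4 CPM in the Trem2-/- libraries (log2 fold change 1.27, s.e. 0.10, adjusted p = 1.1e-09). Mylip, a ubiquitin ligase induced by LXR, was at 20.3, 22.3, 19.98 and 22.8 CPM in the WT libraries and 38.75, 40.9 and 36.65 CPM in the Trem2-/- libraries (log2 fold change 0.86, s.e. 0.08, adjusted p = 8.9e-09). Abcg1 rose by 1.22 log2 units. Apoc1 rose by 2.41 at a low level, with means of 0.428 CPM in WT and 2.23 CPM in Trem2-/- cells. The exporter gene Abcg4 differed by 0.09 (adjusted p = 0.94), but its means of 0.191 and 0.208 CPM were close to the limit of counting. Srebf1 was at 41.95 ± 4.3 CPM in WT (SD, n = 4) and 36.8 ± 4.57 CPM in Trem2-/- cells (SD, n = 3) (adjusted p = 0.2). Abcg4 and Srebf1 both missed the threshold. Nr1h3, which encodes LXRα, rose by 0.32 log2 units and was not called with library totals alone, without KO_NF sample 3 or without WT_NF sample 1.

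The promoters of the sterol, replication and lysosomal genes are shown because members of each group moved together. RefSeq promoters on GRCm38.p6, spanning 250 bases before to 50 after the start site, were matched by symbol for 14 of the 18 tested cholesterol synthesis genes, 3 of the 5 other SREBP2 targets, 32 of 40 replication genes and 29 of 36 lysosomal genes. The motifs were searched on both strands, and a gene with several promoters counted once. The CCAAT box (CCAAT), bound by NF-Y, was found in 14 of 14 cholesterol synthesis promoters and 3 of 3 of the other SREBP2 targets, against 43.2% of tested genes and 41.1% of all genes with a promoter. The core of the sterol response element (TCACCCCA) was found in 1 of 14 and 1 of 3, against 1.67% of tested genes and 1.77% of all genes. Only this exact spelling was searched, so a promoter without a match may still hold the element in another spelling. The 4 spellings of an E2F site (TTTCCCGC, TTTGGCGC, TTTCGCGC and TTTGCCGC, of which TTTCGCGC can overlap its own reverse complement and that of TTTGGCGC) were found in 13 of 32 replication promoters, 40.6%, against 4.77% of tested genes and 2.61% of all genes. The core of the CLEAR element (TCACGTGA, its own reverse complement), bound by Tfeb and Mitf, was found in 3 of 29 lysosomal promoters, 10.3%, against 2.20% and 1.13%. A match is a description of letters and not a bound site.

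The windows below run 5′ to 3′ on the gene's strand, end at or before the start site, and carry the match in capitals (a reverse match appears as its reverse complement). The first pair are the sterol response element cores, of Hmgcs1 (chr13:119690174-119690261, plus strand) and Srebf2 (chr15:82147067-82147154, plus strand). Then come the CCAAT boxes of the 3 enzymes with the largest falls among those with a match before the start, Idi1 (chr13:8885552-8885605, plus strand), Hsd17b7 (chr1:169969206-169969257, minus strand) and Cyp51 (chr5:4104698-4104766, minus strand), with 2 matches in the Idi1 window.
Hmgcs1: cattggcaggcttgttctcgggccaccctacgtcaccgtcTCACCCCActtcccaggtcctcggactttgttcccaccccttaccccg
Srebf2: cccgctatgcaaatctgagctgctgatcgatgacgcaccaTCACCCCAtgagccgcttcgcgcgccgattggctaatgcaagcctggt
Idi1: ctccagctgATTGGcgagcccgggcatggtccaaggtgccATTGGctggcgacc
Hsd17b7: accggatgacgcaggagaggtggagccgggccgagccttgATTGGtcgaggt
Cyp51: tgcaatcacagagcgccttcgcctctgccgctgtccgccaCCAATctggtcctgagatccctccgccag
The E2F matches shown are those of Uhrf1 (chr17:56304088-56304175, plus strand), Mcm5 (chr8:75109320-75109407, plus strand, 2 overlapping matches) and Orc1 (chr4:108579387-108579453, plus strand), and the CLEAR cores those of the 3 matching promoters, of Ctsd (chr7:142387879-142387966, minus strand), Gla (chrX:134601153-134601240, minus strand, 2 matches) and Ctsa (chr2:164833720-164833772, plus strand).
Uhrf1: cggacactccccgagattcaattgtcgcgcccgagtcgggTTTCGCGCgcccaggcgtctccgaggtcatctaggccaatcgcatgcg
Mcm5: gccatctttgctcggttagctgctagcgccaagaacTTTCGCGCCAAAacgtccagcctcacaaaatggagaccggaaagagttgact
Orc1: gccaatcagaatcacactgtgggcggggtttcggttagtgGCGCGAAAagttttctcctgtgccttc
Ctsd: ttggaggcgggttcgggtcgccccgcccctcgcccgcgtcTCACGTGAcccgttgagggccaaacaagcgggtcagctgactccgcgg
Gla: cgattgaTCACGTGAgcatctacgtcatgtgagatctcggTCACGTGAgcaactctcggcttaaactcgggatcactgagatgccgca
Ctsa: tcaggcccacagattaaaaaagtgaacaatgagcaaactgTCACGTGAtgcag

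Of 22 tested genes of lipid droplets, PPAR signalling and fatty acid oxidation, 10 rose (45.5%, against 21.0% of all tested genes), 1 fell (4.55%, against 22.6%) and 11 were not called. The gene that fell was Dgat2, not called without KO_NF sample 2, WT_NF sample 2 or WT_NF sample 4, and 2 members fell with library totals alone or with length and GC trends removed. Fabp4, a fatty acid carrier of macrophages and fat cells, was at 68.75, 58, 72.9 and 65.15 CPM in the WT libraries and 228, 222 and 208 CPM in the Trem2-/- libraries (log2 fold change 1.73, adjusted p = 1.8e-12). Pnpla2, the main triglyceride lipase of lipid droplets, rose by 0.80 log2 units, the cholesteryl ester hydrolase Nceh1 by 0.61 and Soat1, which esterifies cholesterol, by 0.64. The lipid droplet coat gene Plin2 was at 195 ± 19 CPM in WT (SD, n = 4) and 208 ± 3.675 CPM in Trem2-/- cells (SD, n = 3) and the scavenger receptor gene Cd36 at 17.2 ± 0.836 CPM in WT (SD, n = 4) and 16.3 ± 0.839 CPM in Trem2-/- cells (SD, n = 3), and both missed the threshold (adjusted p = 0.3 and 0.54). Without WT_NF sample 3 Plin2 was called (log2 fold change 0.17, adjusted p = 0.036).

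The list of scavenger, Fc and apoptotic cell uptake receptors also holds soluble ligands that bridge dying cells to phagocytes. Of its 24 tested genes 14 rose (58.3%, against 21.0% of all tested genes) and 3 fell (12.5%, against 22.6%). Mertk, a receptor for apoptotic cells, was at 30.4, 30.4, 25.2 and 31.4 CPM in the WT libraries and 68.3, 67.6 and 71.5 CPM in the Trem2-/- libraries (log2 fold change 1.23, s.e. 0.09, adjusted p = 2e-10). The activating Fc receptor gene Fcgr4 was at 81.4, 76.3, 97.6 and 75.9 CPM in the WT libraries and 198, 194 and 192 CPM in the Trem2-/- libraries (log2 fold change 1.24, adjusted p = 2.8e-10), the inhibitory Fcgr2b rose by 0.99 and Cd300a, a receptor for phosphatidylserine, by 0.91. The class A scavenger receptor gene Msr1 fell from 24.2 ± 2.49 CPM in WT (SD, n = 4) to 15.5 ± 1.39 CPM in Trem2-/- cells (SD, n = 3). Of 17 tested antigen presentation genes 9 rose (52.9%, against 21.0%) and 1 fell (5.88%, against 22.6%), the latter being Cd1d1, which was not called without any 1 of 6 libraries (it was called without WT_NF sample 1). H2-DMb1, which edits peptides on class II molecules, was at 3.71, 3.41, 4.18 and 3.19 CPM in the WT libraries and 21.4, 22.2 and 24.1 CPM in the Trem2-/- libraries (log2 fold change 2.65, adjusted p = 9.4e-15). The class II genes H2-Aa, H2-Ab1 and H2-Eb1 had no count in the 7 libraries. The invariant chain Cd74 rose by 0.89 log2 units and the class I light chain B2m by 0.74, with B2m highest among WT libraries in WT_NF sample 3. Class I genes share reads with near-identical copies and their counts are uncertain.

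Of 14 tested genes of alternative activation, 9 rose (64.3%, against 21.0% of all tested genes) and none fell (against 22.6%). They included Mrc1 (the mannose receptor, 1.94), the interleukin 4 receptor Il4ra (0.64), the chemokine Ccl24 (1.34) and the transcription factor Egr2, at 0.779 ± 0.315 CPM in WT (SD, n = 4) and 1.645 ± 0.422 CPM in Trem2-/- cells (SD, n = 3) (log2 fold change 1.05, adjusted p = 0.01). Egr2 was not called without KO_NF sample 2. Retnla and Chil3, common markers of this state in mouse, had no count in the 7 libraries. With library totals alone 7 rose and 1 fell, and 1 member also fell with length and GC trends removed, with no filter on low counts, without WT_NF sample 3 or without KO_NF sample 3.

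Inflammatory genes had no common direction, with 7 of 18 tested cytokines and mediators higher (38.9%, against 21.0%) and 3 lower (16.7%, against 22.6%). Nlrp3, the inflammasome sensor, was at 18.15, 17.55, 14.6 and 18.2 CPM in the WT libraries and 8.75, 7.25 and 8.54 CPM in the Trem2-/- libraries (log2 fold change -1.07, adjusted p = 3.1e-07), and Tnf fell by 1.07. Il1a rose by 3.40 log2 units from 0.905 ± 0.282 CPM in WT (SD, n = 4) to 9.47 ± 0.595 CPM in Trem2-/- cells (SD, n = 3), while Il1b, which signals through the same receptor, was at 1.23 ± 0.248 CPM in WT (SD, n = 4) and 1.5 ± 0.501 CPM in Trem2-/- cells (SD, n = 3) and missed the threshold (adjusted p = 0.45). Tnfaip2 rose by 0.93 log2 units and the NF-κB inhibitor Nfkbia fell by 0.63. With library totals alone 4 members rose and 3 fell, and 4 rose without KO_NF sample 1.

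Of 13 tested chemokine ligands and receptors, 4 rose and 4 fell (30.8% each, against 21.0% and 22.6% of all tested genes). Ccl9 was at 72.6, 63.6, 73.6 and 65.8 CPM in the WT libraries and 26.7, 25.1 and 23.2 CPM in the Trem2-/- libraries (log2 fold change -1.46, s.e. 0.09, adjusted p = 9e-12), Ccl4 fell by 1.36, Ccl3 fell by 0.9951 and the monocyte attractant Ccl2 by 2.04. Cxcr4 was at 35, 35.7, 35.6 and 33.5 CPM in the WT libraries and 76.6, 72 and 78.4 CPM in the Trem2-/- libraries (log2 fold change 1.12, adjusted p = 9.4e-12), and Cxcr2 rose by 1.22. The platelet chemokine Pf4 rose by 0.42 log2 units and Ccrl2, a receptor that does not signal, by 1.23.

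Of 32 tested interferon-stimulated genes 21 were not called, which gives 34.4% called against 43.6% of all tested genes. Higher were 8 (25%, against 21.0%) and lower 3 (9.38%, against 22.6%). Rsad2 (viperin) rose from 4.735 ± 1.12 CPM in WT (SD, n = 4) to 12.4 ± 0.572 CPM in Trem2-/- cells (SD, n = 3) (log2 fold change 1.40, adjusted p = 2.2e-07), whereas Isg15 (0.18, adjusted p = 0.68) and Irf7 (0.40, adjusted p = 0.38) missed the threshold. The interferon-inducible GTPase Ifi47 fell from 3.51 ± 0.439 CPM in WT (SD, n = 4) to 0.634 ± 0.2755 CPM in Trem2-/- cells (SD, n = 3) (log2 fold change -2.43, adjusted p = 5.8e-06). Of 20 matrix metalloproteases and inhibitors 7 were tested, with 2 higher and 1 lower, which gives 42.9% called against 43.6%. Mmp12, the macrophage elastase, was at 69.45, 70.3, 80.7 and 63.25 CPM in the WT libraries and 21.7, 22.99 and 17.9 CPM in the Trem2-/- libraries (log2 fold change -1.76, s.e. 0.12, adjusted p = 6.6e-11). In this list 2 members fell without WT_NF sample 2, with the DESeq2 Wald test, with no filter on low counts and with only the 7 non-foamy libraries fitted. Mmp9 was at 0.5681 and 0.12 CPM and missed the threshold (adjusted p = 0.061).

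Of 27 tested sensors of microbes and nucleotides 9 rose and 5 fell, 33.3% and 18.5% against 21.0% and 22.6% of all tested genes. Tlr8, a receptor for single-stranded RNA (chrX:167242696-167264329), was at 0.156, 0.0644, 0 and 0.112 CPM in the WT libraries and 1.82, 2.31 and 1.85 CPM in the Trem2-/- libraries (log2 fold change 4.36, adjusted p = 5.2e-09), close to the limit of counting in WT cells. Cd14, the co-receptor for lipopolysaccharide, was at 118, 116, 122 and 114.5 CPM in the WT libraries and 64.2, 64.1 and 64.4 CPM in the Trem2-/- libraries (log2 fold change -0.87, adjusted p = 5.4e-11), while Tlr4 rose by 0.38, its partner Ly96 by 0.91 and the nucleotide-degrading Entpd1 by 0.86. Tlr2 was at 54.3 ± 1.64 CPM in WT (SD, n = 4) and 54 ± 2.1 CPM in Trem2-/- cells (SD, n = 3) (adjusted p = 0.95). With library totals alone 8 rose and 8 fell. Of 17 tested integrins and adhesion genes, 6 rose and 1 fell (Itgb7, -0.72), which gives 41.2% called against 43.6% of all tested genes, and with library totals alone 2 rose and 2 fell.

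Genes of DNA replication fell almost as a whole, 38 of 40 tested genes (95.0%, against 22.6% of all tested genes), with a median log2 fold change of -0.97. Rrm2, a subunit of ribonucleotide reductase, was at 42.2, 43.1, 42.6 and 48.2 CPM in the WT libraries and 14.9, 13.8 and 12.75 CPM in the Trem2-/- libraries (log2 fold change -1.67, s.e. 0.09, adjusted p = 2.2e-12). Mcm2, part of the replicative helicase, was at 78.4, 89.2, 65.4 and 96.4 CPM in the WT libraries and 26.9, 27.2 and 30.3 CPM in the Trem2-/- libraries (log2 fold change -1.55, adjusted p = 6.3e-10). Uhrf1, which keeps DNA methylation through replication, fell by 1.49 log2 units and Pcna by 0.74, and Pola2 and Rfc2 were not called (Pola2 was called without WT_NF sample 3 or KO_NF sample 3). Of 36 genes of mitosis 34 fell (94.4%, against 22.6%), with a median log2 fold change of -0.66. Mybl2 fell from 80.7 ± 8.92 CPM in WT (SD, n = 4) to 39.9 ± 3.88 CPM in Trem2-/- cells (SD, n = 3), Plk1 by 0.92, Cdk1 by 0.72 and Mki67 by 0.51. In a culture, fewer dividing cells and less RNA per dividing cell cannot be told apart.

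Of 22 genes that drive or brake entry into S phase, 16 fell (72.7%, against 22.6%) and 3 rose (13.6%, against 21.0%). Ccnd2 and Ccnd1 fell by 2.99 and 1.79, Ccnd3 by 0.72, and Ccne1 was at 13.2, 12.8, 10.8 and 12.3 CPM in the WT libraries and 3.45, 5.85 and 4.635 CPM in the Trem2-/- libraries (log2 fold change -1.42, adjusted p = 3.3e-07). Of the inhibitors, Cdkn1b (p27) rose from 33.55 ± 1.34 CPM in WT (SD, n = 4) to 47.3 ± 1.63 CPM in Trem2-/- cells (SD, n = 3), whereas Cdkn1a (p21) fell by 0.44 log2 units. The members that rose were Cdkn1b, Cdkn2c and Rb1, and 1 member was called higher with library totals alone or without KO_NF sample 1, KO_NF sample 3 or WT_NF sample 1.

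Negative feedback genes of the ERK pathway are induced by the signal that they restrain. Of 22 tested feedback and immediate early genes 12 fell (54.5%, against 22.6%) and 3 rose. Dusp6, the phosphatase of ERK, was at 4.33, 6.12, 2.42 and 5.13 CPM in the WT libraries and 0.285, 0.433 and 0.4635 CPM in the Trem2-/- libraries (log2 fold change -3.53, s.e. 0.33, adjusted p = 1.5e-08). The Ets factor gene Etv5 was at 18.8, 20.8, 14.8 and 22.65 CPM in the WT libraries and 5.19, 3.9 and 5.63 CPM in the Trem2-/- libraries (log2 fold change -1.97, s.e. 0.17, adjusted p = 5.1e-09), with WT_NF sample 3 lowest among the WT libraries in both, and Etv4 was at 2.75, 2.9, 3.21 and 2.59 CPM in the WT libraries and 0.114, 0.144 and 0.132 CPM in the Trem2-/- libraries. Spry2 fell by 0.77 log2 units and Fos by 1.76. Jun missed the threshold (0.15, adjusted p = 0.3), and the stress-induced Atf3 rose from 144 ± 11.6 CPM in WT (SD, n = 4) to 278 ± 5.04 CPM in Trem2-/- cells (SD, n = 3). Myc had 2 to 6 counts in each WT library and none in the Trem2-/- libraries and was not tested.

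**Figure D3:**
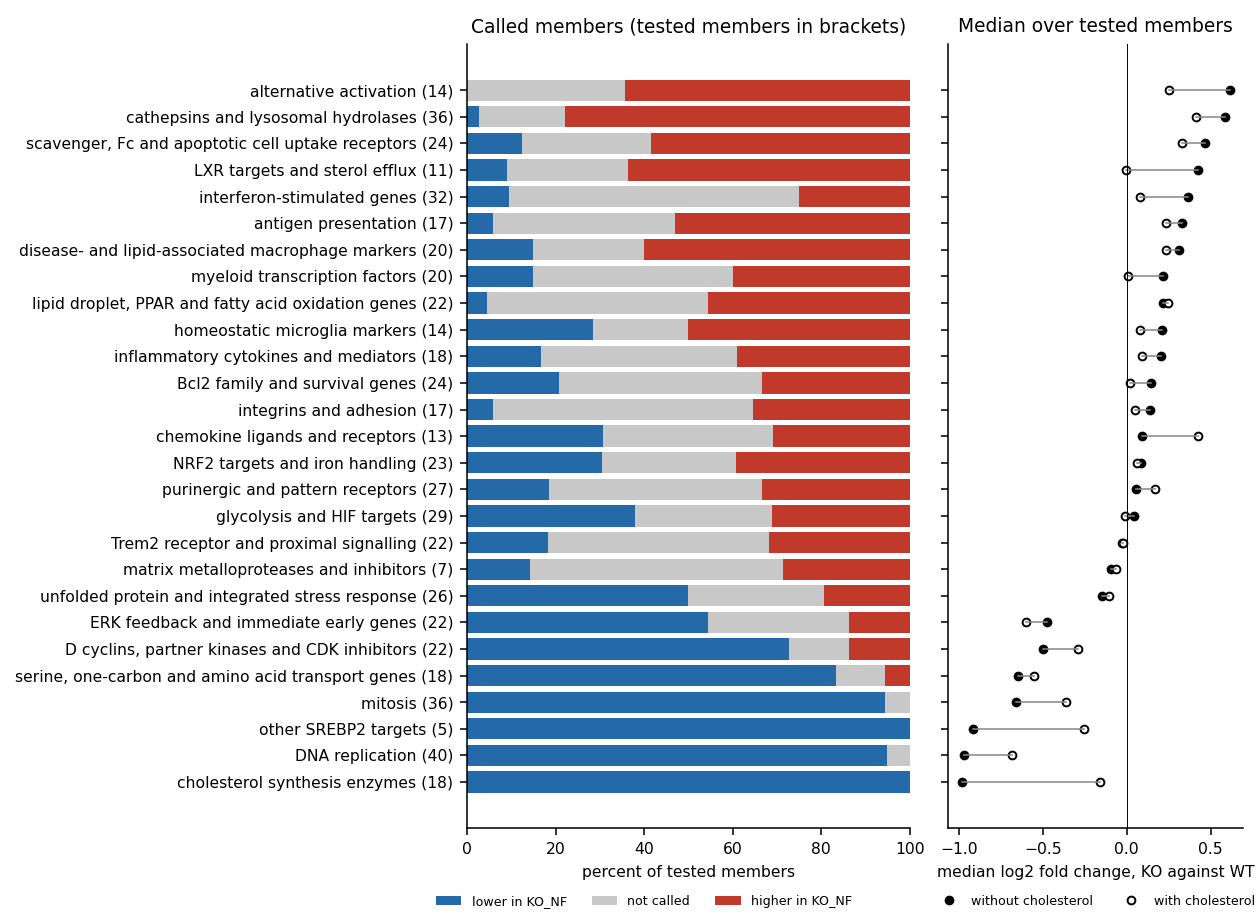
Left, percent of tested members of 27 gene lists that were higher (red), lower (blue) or not called (grey) in Trem2-/- non-foamy cells, with the number tested in brackets. Right, median log2 fold change of the same members without (filled) and with (open) cholesterol, where the medians of cholesterol synthesis enzymes are -0.98 and -0.16 and those of DNA replication -0.97 and -0.69. The medians of the chemokine, NRF2, glycolysis, integrin and purinergic lists change sign with library totals alone. That scaling moved the median of all tested genes from 0.02 to -0.13, so these sign changes say nothing about the lists themselves.

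Of 18 tested genes of amino acid transport and one-carbon metabolism, 15 fell (83.3%, against 22.6%) and 1 rose. Mthfd2, the mitochondrial folate enzyme, was at 60.1, 61.65, 61.35 and 60.3 CPM in the WT libraries and 19.8, 24.6 and 20 CPM in the Trem2-/- libraries (log2 fold change -1.51, s.e. 0.08, adjusted p = 3.2e-12). The amino acid transporter gene Slc7a5 was at 38.5, 40.5, 29.3 and 47.1 CPM in the WT libraries and 12.4, 17.2 and 17 CPM in the Trem2-/- libraries (log2 fold change -1.33, adjusted p = 8.8e-08), with WT_NF sample 3 again the lowest of the WT libraries. The serine synthesis genes Phgdh, Psat1 and Psph fell by 0.65 log2 units, 0.73 and 0.90. The cystine transporter gene Slc7a11 rose by 0.51 log2 units, and 2 members rose without WT_NF sample 4, with the sample number as a block and with length and GC trends removed.

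Of 26 tested genes of the unfolded protein and integrated stress responses, 13 fell (50%, against 22.6%) and 5 rose (19.2%, near the 21.0% of all tested genes). Sdf2l1, a folding factor of the endoplasmic reticulum, was at 52.1, 52.8, 54.8 and 53.7 CPM in the WT libraries and 24.96, 24.2 and 26.2 CPM in the Trem2-/- libraries (log2 fold change -1.09, adjusted p = 1.1e-10), and the chaperone gene Hspa5 (BiP) fell by 0.20. Asns, a target of Atf4, fell from 60.9 ± 0.79 CPM in WT (SD, n = 4) to 30.65 ± 0.6835 CPM in Trem2-/- cells (SD, n = 3), and Atf4 by 0.37. Xbp1 was at 140.3 ± 4.97 CPM in WT (SD, n = 4) and 151 ± 4.55 CPM in Trem2-/- cells (SD, n = 3) and missed the threshold (adjusted p = 0.18). The pro-death factor Ddit3 (CHOP) rose from 5.02 ± 0.742 CPM in WT (SD, n = 4) to 9.92 ± 2.095 CPM in Trem2-/- cells (SD, n = 3) (log2 fold change 0.9979, adjusted p = 3.2e-06), with the phosphatase subunit Ppp1r15a at 0.85 and Atf5 at 0.91.

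Among 24 tested genes of the Bcl2 family and survival, 8 rose (33.3%, against 21.0%) and 5 fell (20.8%, against 22.6%). Mcl1, a protein that holds off apoptosis, was at 735, 728, 719 and 733 CPM in the WT libraries and 1328, 1305 and 1272 CPM in the Trem2-/- libraries (log2 fold change 0.84, s.e. 0.06, adjusted p = 2.9e-10). Bcl2, of like function, was at 10.5, 9.5, 9.2 and 13.2 CPM in the WT libraries and 4.62, 4.33 and 5.56 CPM in the Trem2-/- libraries (log2 fold change -1.14, s.e. 0.14, adjusted p = 9.4e-07). Bcl2l1 fell by 0.73 log2 units. The death-promoting Bmf and Bcl2l11 (Bim) rose by 1.09 log2 units and 0.49, and Bid and Bax fell by 0.77 and 0.43. With library totals alone 5 rose and 9 fell.

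Of 23 tested genes of the list of NRF2 targets and iron handling, 9 rose and 7 fell (39.1% and 30.4%, against 21.0% and 22.6% of all tested genes). Slc40a1 (ferroportin), the exporter of iron, was at 17.95, 21.5, 22.9 and 21.4 CPM in the WT libraries and 61.2, 60.9 and 58.2 CPM in the Trem2-/- libraries (log2 fold change 1.52, s.e. 0.08, adjusted p = 2.1e-12). The ferritin subunit genes Fth1 and Ftl1 rose by 0.48 log2 units and 0.53. The ferritins have many near-identical pseudogenes, and their counts are uncertain. Gclc, the rate-limiting enzyme of glutathione synthesis, fell from 34.3 ± 2.36 CPM in WT (SD, n = 4) to 21.6 ± 1.11 CPM in Trem2-/- cells (SD, n = 3), Gsr by 0.69 and Txnrd1 by 0.54. Of 29 tested genes of glycolysis and HIF targets, 9 rose and 11 fell (31.0% and 37.9%, against 21.0% and 22.6%), and with library totals alone 5 rose and 12 fell. Hk2 rose by 0.82 log2 units and Vegfa by 0.38, and Slc16a1, Hif1a and the lactate dehydrogenase gene Ldha fell by 0.67, 0.57 and 0.25.

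Of the 8 tested markers of other cell types, 5 were called, against 43.6% of all tested genes (Kdr, Cd4, Slc1a2, Cnp and Mbp, the last not without KO_NF sample 1 or KO_NF sample 3), and their part in the results was not tested. Kdr, the vascular endothelial growth factor receptor, was at 8.64, 8.825, 6.6 and 9.71 CPM in the WT libraries and 1.88, 1.91 and 2.52 CPM in the Trem2-/- libraries, while Cldn5 and Tek were at 0 counts and Pecam1 and Cdh5 at no more than 8 counts in a library. Cd4 was at 0.674, 0.676, 0.484 and 0.714 CPM in the WT libraries and 1.6, 2.24 and 2.35 CPM in the Trem2-/- libraries, while Cd3e, Cd8a and Ms4a1 were at 0. The oligodendrocyte list summed to 21.7 to 25.3 CPM in WT and 15.2 to 16.3 CPM in Trem2-/- libraries, with Cnp the most abundant and Mog at 0. The astrocyte list summed to at most 0.741 CPM, with Gfap, Aqp4, Slc1a3 and Aldh1l1 at 0, and the granulocyte and mast cell list to at most 0.792 CPM, with Ly6g, Mpo and S100a9 at 0.

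Whether the genotype difference depends on cholesterol was tested as the difference without minus the difference with cholesterol, in 1 contrast over the 15 libraries. It was called for 518 genes (3.64%), 502 of which were also called without cholesterol. It was called for 985 with the DESeq2 Wald test, for 1262 with length and GC trends removed and for 294 with the sample number as a block. In 460 of the 518 the genotype difference had the same sign in both conditions, and in 452 of these it was larger without cholesterol, while 58 had opposite signs. Over all genes called without cholesterol, the median absolute log2 fold change was 0.50 without and 0.29 with cholesterol, a comparison that favours the condition in which the genes were called. The count of 518 was between 201 and 454 when 1 non-foamy library other than WT_NF sample 3 was left out, and was 557 without that library. Without 1 foamy library it was between 238 (without WT_F sample 2) and 661 (without WT_F sample 4).

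Genes of sterol metabolism were among those whose genotype difference was larger without cholesterol. Idi1 differed by -1.96 log2 units without and -0.26 with cholesterol, a difference of -1.70 (adjusted p = 4.8e-08). Msmo1 differed by -1.61 log2 units and -0.12 (difference -1.49, adjusted p = 5.8e-09). Called in this test were 14 of the 18 cholesterol synthesis enzymes and 4 of the 11 LXR targets, against 3.64% of all tested genes. Such calls were not confined to sterol genes. They included 14 of 36 mitosis genes, 5 of 13 chemokine ligands and receptors and 5 of 22 lipid droplet, PPAR and fatty acid oxidation genes. Among 22 genes of the Trem2 receptor list, 17 antigen presentation genes and 17 integrins and adhesion genes there were 0. Abca1 differed by 1.27 log2 units without and -0.04 with cholesterol (difference 1.31, adjusted p = 4.3e-06). For Idi1, mean levels were 52.6 CPM in WT and 13.55 CPM in Trem2-/- non-foamy cells and 27.1 and 22.6 CPM in foamy cells, so the order of the genotypes held while their distance shrank.

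Of the 5 genes with the most positive change by the rule, Abca1 and Il1a are described above, Tubb2b (1.71) encodes a tubulin, and Rpl19-ps12 (1.92) and Ndufa12-ps (1.49) are pseudogenes with reads of uncertain origin. Of the 5 with the most negative change, Idi1 and Msmo1 are above. Ccl9 differed by -1.46 log2 units without and -0.04 with cholesterol (difference -1.42, adjusted p = 4.8e-08), and Gm36172 is a non-coding transcript (-1.70). The fifth, Eif3j2, changed by -1.85 log2 units. Of the 15 fits that leave out 1 library, Eif3j2 was called in 2, Tubb2b in 3 and Rpl19-ps12 in 6. Cd36 and Plin2 were not called without cholesterol and differed by 0.91 log2 units and 0.72 with it (differences -0.99 and -0.63, adjusted p = 0.00014 and 0.0008).

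**Figure D4:**
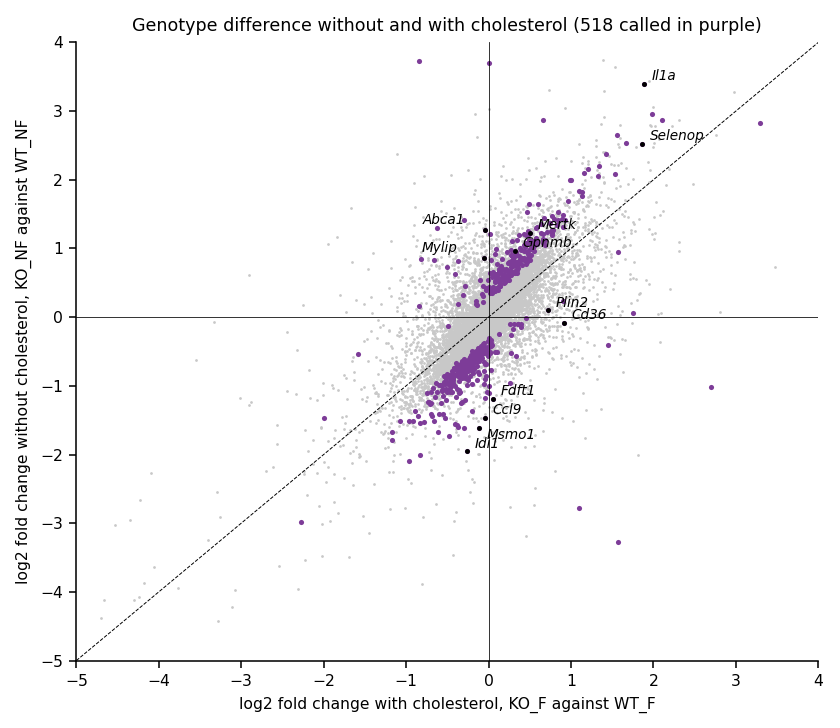
Log2 fold change of Trem2-/- against WT cells without cholesterol (vertical axis) against that with cholesterol (horizontal axis) per tested gene, with the 518 genes called in the test of the difference in purple (black where named) and equal differences on the dashed line. Idi1 (-1.96 and -0.26) and Abca1 (1.27 and -0.04) lie near the vertical axis, and 32 genes lie outside the axis range of -5 to 4.

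Because the Trem2-/- cells were cloned, levels were also described along whole chromosomes. For each library the median over the genes of a chromosome of the log2 level, relative to the WT mean and to the autosomes as a whole, was taken. The differences between Trem2-/- and WT libraries ran from -0.060 on chromosome 16 to 0.083 on chromosome 14 over 20 chromosomes. On chromosome 14 the WT libraries lay at 0.0043, -0.0012, 0.012 and -0.0088 and the Trem2-/- libraries at 0.089, 0.093 and 0.072, over 492 genes. The groups did not overlap on 10 of the 20 chromosomes, and on 5 of these the foamy libraries were also separated in the same direction. With 3 against 4 libraries the exact two-sided permutation test cannot go below p = 0.057, which it reached on these 10 (adjusted p = 0.11 over the chromosomes). In the foamy libraries the largest difference was 0.087, again on chromosome 14, where the exact two-sided permutation p was 0.029, the smallest that 4 against 4 allows (adjusted p = 0.11). For scale, a gain from 2 to 3 copies in every cell, if levels followed copy number, would shift a median by 0.585, and a gain from 4 to 5 copies by 0.322. A gain in part of the cells would shift it by less, and copy number itself was not tested.

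**Figure D5:**
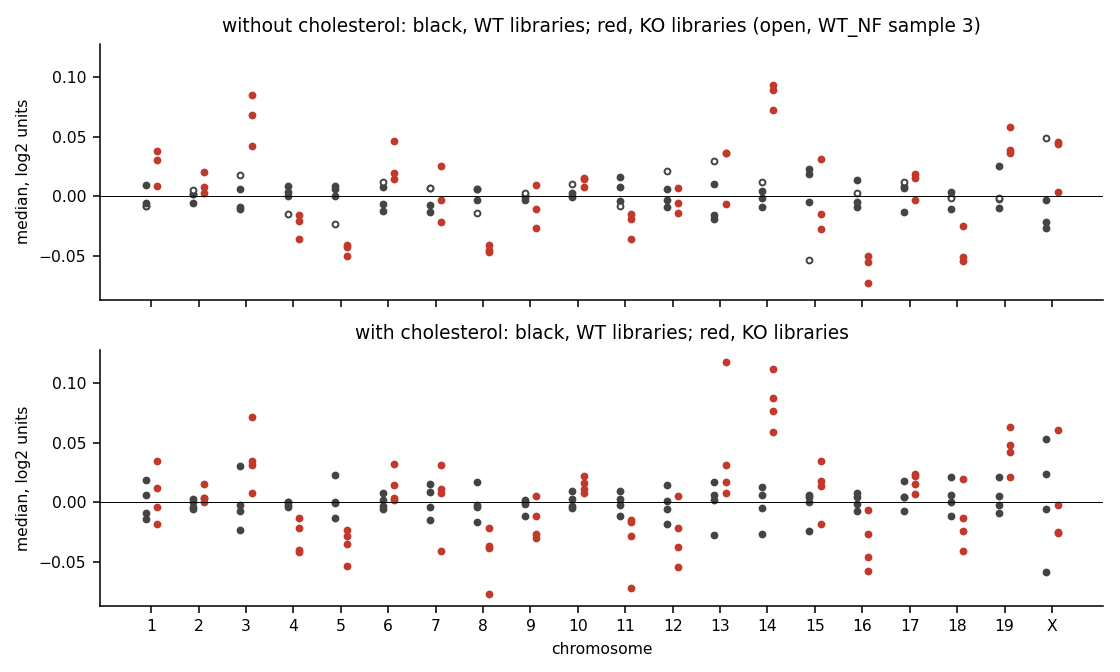
Median log2 level over the genes of each chromosome, relative to the WT mean of the same condition and to the autosomes, in each library without (top) and with (bottom) cholesterol, with WT libraries in black and Trem2-/- libraries in red. On chromosome 14 the Trem2-/- libraries lie above the 4 WT libraries in both panels, at 0.072 to 0.093 without cholesterol.

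The call threshold had no natural gap beside it. The called genes closest to it were Snx12, Rpl15-ps6 and Gm49871 (adjusted p = 0.0499, 0.04996 and 0.04999), and the closest not called were Card6, Pard6a and Gm42067 (0.05002, 0.05005 and 0.05009). At the unadjusted p under 0.05, 7208 genes differed.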

How the data were processed

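RNA-seq libraries of BV2 cells were analysed from the raw counts per gene that the authors deposited, 1 table per library. According to the study's methods, RNA was isolated with TRIzol and a column kit and sequenced on a NovaSeq, and reads were trimmed with Trimmomatic, aligned to the mouse genome GRCm38 with HISAT2 and counted with featureCounts within the CHURP pipeline. Strand setting and treatment of reads with several matches are not given in the sources used here, which makes counts of overlapping genes, near-identical copies and pseudogenes uncertain.

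Groups came from the labels. All 15 libraries were fitted with edgeR 4.0.16 (R 4.3.3), TMM factors, filterByExpr with a minimum count of 10, and 1 mean per group, by the quasi-likelihood test with Benjamini-Hochberg adjustment over the 14237 tested genes. The biological coefficient of variation was 10.2%. Genes were called at an adjusted p under 0.05. Standard errors were the absolute log2 fold change over the square root of F, and CPM used TMM-scaled library sizes. Alternatives were DESeq2 1.42.0 (the tool of the study), RLE factors, library totals alone, other filters, the 7 non-foamy libraries alone, the sample number as a block, length and GC trends removed, a fold threshold, and each non-foamy library left out. Leaving out each foamy library was added after the data were seen, for the counts of called genes, for Trem2 and for the test of the cholesterol dependence. Chromosome medians and figures used Python 3.11.15, pandas 2.3.3 and scipy 1.17.1.

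The comparison, the gene lists and the tests were chosen with earlier results of these data known, so list counts and medians are descriptions. Genes were named by a rule: Trem2, the 15 largest increases and decreases among called genes of at least 1 CPM without overlap, the anchor genes and 4 largest called changes of each list, the 5 largest differences in each direction for cholesterol dependence, and the 3 genes on each side of the threshold. Other list members were named after their values were seen, and not every gene under the rule is described. Some items are not reported here.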

Additional observations from a re-analysis of the deposited data

Results flagged for a closer look

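WT_NF sample 3 lay apart from the other 3 WT non-foamy libraries in 4 library measures by Dixon's test, which divides the gap to the nearest library by the range of the group. The ratio was 0.9547 for the TMM factor, 0.8731 for the share of mitochondrial counts, 0.911 for that of ribosomal protein genes and 0.9435 for that of the 10 most abundant genes. Chance gives about 1 such result in 20 groups. Of the 221 tested genes named, 18 had a WT library as far apart in CPM, and in 14 of them it was WT_NF sample 3.

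Those 14 genes, with the ratio, were Abcg1 (0.9263), B2m (0.9474), Cd300a (0.8655), Cnp (0.8566), Ctsk (0.8363), Inpp5d (0.8406), Ly96 (0.9087), Mertk (0.836), Ndufa12-ps (0.8978), Npc2 (0.849), Pf4 (0.8638), Prkcd (0.9124), Snx12 (0.8543) and Tyrobp (0.9151). In the others it was another WT library, in Cdkn1b (0.9565, sample 2), Hspa5 (0.844, sample 2), Rrm2 (0.8476, sample 4) and Xbp1 (0.844, sample 4).

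The genotype difference itself depended on cholesterol, by the test of the difference, for 60 of the named genes. The values that follow are differences of log2 fold changes, without minus with cholesterol. In 42 of them a difference was called in both conditions. Those called higher in both, and more so without cholesterol, were Apoe (0.45), Atf3 (0.49), BC021767 (0.88), Bhlhe40 (0.46), Bhlhe41 (0.56), Ctsk (0.47), Cxcr2 (0.79), Cxcr4 (0.57), Entpd1 (0.39), Gm6325 (1.09), Gpnmb (0.64), Il1a (1.52), Mcl1 (0.45), Mertk (0.73), Ppp1r15a (0.46), Psap (0.57), Selenop (0.65), Slc36a2 (0.98), Slc40a1 (0.68), Soat1 (0.30), Timp2 (0.51), Tnfaip2 (0.44) and Vnn3 (0.77). Those called lower in both, and more so without cholesterol, were Asns (-0.39), Ccl3 (-0.58), Ccl4 (-0.47), Ccnd1 (-0.62), Ccnd2 (-0.72), Ccne1 (-0.87), Cd14 (-0.52), Cdk1 (-0.41), Cyp51 (-1.31), Fdps (-1.24), Hsd17b7 (-1.26), Idi1 (-1.70), Kdr (-1.19), Mthfd2 (-0.54), Psat1 (-0.44), Rrm2 (-0.49), Sdf2l1 (-0.46) and Tmem97 (-0.66). Ndufa12-ps (1.49) was called higher without and lower with cholesterol. In 14 genes the genotype difference was called without and missed the threshold with cholesterol. Of these, the ones higher without cholesterol were Abca1 (1.31), Abcg1 (1.19), Mylip (0.91), Rpl19-ps12 (1.92) and Tubb2b (1.71), and the ones lower were Bax (-0.38), Ccl9 (-1.42), Cdkn1a (-0.44), Fdft1 (-1.25), Gsr (-0.65), Hmgcs1 (-0.91), Insig1 (-0.71), Msmo1 (-1.49) and Stard4 (-0.77). The other 4 genes, Cd36 (-0.99), Eif3j2 (-1.85), Gm36172 (-1.70) and Plin2 (-0.63), missed the threshold without cholesterol and were higher in Trem2-/- cells with it. Of the 60 genes 37 were called in this test in each of the 15 fits that leave out 1 library. The others were called in fewer of these 15 fits, namely Eif3j2 in 2, Ccl4 and Tubb2b in 3, Bax in 4, Soat1 in 5, Ccnd1, Rpl19-ps12, Slc36a2 and Tnfaip2 in 6, Vnn3 in 7, Ccne1 in 9, Entpd1 in 10, Gsr and Ppp1r15a in 11, Asns and Rrm2 in 12, Gm36172 and Kdr in 13, and Apoe, Cdk1, Cdkn1a, Ctsk and Cxcr2 in 14. These genes were named partly for this difference, so their number says nothing about the rest.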

How the results depend on the processing

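The calls between Trem2-/- and WT non-foamy cells kept their direction for each named gene that was called, and 191 of the 221 named genes (Trem2 counted apart) also kept their side of the threshold, under the 15 alternatives without a fold threshold that gave a value. With library totals alone 1820 genes were higher. A fold threshold of at least 1 on the log2 scale left 880 genes, 472 higher and 408 lower. Leaving out 1 non-foamy library in turn gave 5232 to 6380 called genes, 2491 to 3086 higher and 2741 to 3294 lower, and leaving out 1 foamy library gave 6058 to 6423. The log2 fold change of Trem2 lay between -0.71 and -0.59 when 1 library was left out (of either condition) and was -0.81 with library totals alone. The count of genes whose genotype difference depended on cholesterol moved most. It was 985 with the DESeq2 Wald test, 1262 with length and GC trends removed, 45 with the fold threshold, 201 to 557 when 1 non-foamy library was left out, and 238 to 661 when 1 foamy library was left out, which was chosen after seeing the data. The cause was not tested. The largest chromosome shift ran from 0.079 to 0.1006 with 1 non-foamy library left out, the highest without WT_NF sample 1.

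Deviations from the group means of same-numbered libraries correlated between -0.10 and 0.14 over 21 pairs. Differently numbered libraries ran from -0.23 (WT_F sample 1 with WT_NF sample 3) to 0.17 (WT_F sample 1 with WT_NF sample 4). No pairing by sample number was seen, but correlations of this size cannot exclude it. With the sample number as a replicate block, 2850 genes were higher and 3054 lower, and 294 genes were called in the test of the cholesterol dependence. Counts of 10 or fewer, the few libraries per group and the clonal origin of the Trem2-/- cells limit what can be read from small differences.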
